A study of Homo sapiens with 4 samples.

Results

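The genes that write and erase DNA methylation were examined for chromatin occupancy by OGA (O-GlcNAcase), which strips the sugar O-GlcNAc from proteins inside the cell. They were 8 genes fixed by name. The writers were DNMT1, DNMT3A, DNMT3B, DNMT3L and UHRF1 (5 genes), and the erasers were TET1, TET2 and TET3 (3 genes). A region was counted for a gene when the deposited annotation assigned it there. The 8 genes held 4 of 1334 regions listed after OGA knockdown and 18 of 8977 distinct regions listed in control.

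Occupancy was measured by CUT&Tag, in which an antibody, here against OGA, directs a transposase to cut and tag nearby DNA. The cells were H9, an established human embryonic stem cell line, cultured on mouse feeders in PXGL, a medium for naive pluripotency that combines LIF with MEK, tankyrase and PKC inhibitors. The OGA knockdown group (titled shOGA) and the control group (genotype WT) had 2 libraries each, and no other treatment is recorded for either. The labels give neither the extent of the knockdown nor whether the replicates were separate cultures. The deposited data are 1 list of regions per group, and every region merges at least 1 peak from each replicate. The lists carry no count, signal or score, so depth is unknown, no region has a value per library, and no difference between the groups could be tested. Each count below has no replicate check.

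DNA methylation in mammals is carried by cytosines in CpG sites. DNMT3A and DNMT3B are the de novo methyltransferases, DNMT3L is a cofactor without catalytic activity of its own, and DNMT1 copies the pattern after replication at hemimethylated sites that UHRF1 recognises. TET1, TET2 and TET3 oxidise 5-methylcytosine, and TET proteins bind OGT, the transferase that adds the sugar OGA removes. Naive human pluripotent cells are known for globally low DNA methylation and for expression of DNMT3L.

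Start windows of 4 of these genes are shown because the results turn on them. DNMT1 had a RefSeq start window that a control region covered almost whole, UHRF1 had no region in either list, and TET1 and DNMT3B had windows that lay close to listed regions but outside them. Each is 300 bases from RefSeq, build GRCh38.p14, from 250 bases before to 50 after a transcription start, written 5′ to 3′ on the gene's strand. Where RefSeq gave several starts, the most upstream one in the table is shown. Capitals mark CG, the site that these enzymes act on, which reads the same on both strands.
DNMT1 (chr19:10194904-10195203, - strand): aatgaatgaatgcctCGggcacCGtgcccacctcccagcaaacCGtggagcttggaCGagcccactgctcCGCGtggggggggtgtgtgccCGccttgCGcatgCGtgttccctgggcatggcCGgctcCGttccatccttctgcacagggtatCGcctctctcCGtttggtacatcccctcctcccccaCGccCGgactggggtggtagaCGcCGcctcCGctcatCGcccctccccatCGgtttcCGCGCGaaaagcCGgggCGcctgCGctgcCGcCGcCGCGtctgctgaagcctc
DNMT3B (chr20:32779602-32779901, + strand): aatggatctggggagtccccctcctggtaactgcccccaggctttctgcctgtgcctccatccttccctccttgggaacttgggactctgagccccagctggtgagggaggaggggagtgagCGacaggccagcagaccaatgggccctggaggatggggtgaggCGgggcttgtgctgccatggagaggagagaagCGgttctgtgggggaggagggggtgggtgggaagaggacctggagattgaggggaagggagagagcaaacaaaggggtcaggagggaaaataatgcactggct
UHRF1 (chr19:4909251-4909550, + strand): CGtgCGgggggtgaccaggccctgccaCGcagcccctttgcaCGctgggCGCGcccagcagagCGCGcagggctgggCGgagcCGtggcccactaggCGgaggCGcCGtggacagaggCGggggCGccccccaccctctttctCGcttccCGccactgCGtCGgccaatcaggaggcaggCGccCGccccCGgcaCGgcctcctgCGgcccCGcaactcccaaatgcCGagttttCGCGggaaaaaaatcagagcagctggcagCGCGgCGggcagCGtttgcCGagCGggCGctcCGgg
TET1 (chr10:68560087-68560386, + strand): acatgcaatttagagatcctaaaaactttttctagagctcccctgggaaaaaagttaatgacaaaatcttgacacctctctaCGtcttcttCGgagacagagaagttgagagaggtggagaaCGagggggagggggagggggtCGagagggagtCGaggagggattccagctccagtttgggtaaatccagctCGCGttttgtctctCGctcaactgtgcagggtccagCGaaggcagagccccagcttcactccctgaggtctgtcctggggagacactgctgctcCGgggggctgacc

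The windows differed widely in CG content. That of UHRF1 held 36 CG and that of DNMT1 30, whereas that of TET1 held 10 and that of DNMT3B, at its downstream start, held 3. The median over all 34943 RefSeq start windows was 14, and 96.0% of windows held at least 1. RefSeq gave 18 windows for 7 of the 8 genes, all but DNMT3L, with 3 to 46 CG each. Some windows of 1 gene overlap each other, so the 18 are not independent. None of the 18 was overlapped by a knockdown region, where 1.06% of all windows were. In control 1 of the 18 was overlapped, that of DNMT1, where 9.85% of all windows were. The control region covered 297 bases of the DNMT1 window. Windows richer in CG, at UHRF1, TET3, TET2 and DNMT3A, were not overlapped. These windows do not cover every start that the lists name, and the upstream DNMT3B start at 32762385 is not among them. The same span around that start was overlapped over 48 bp by a knockdown region and over 253 bp by a control region.

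**Figure D1:**
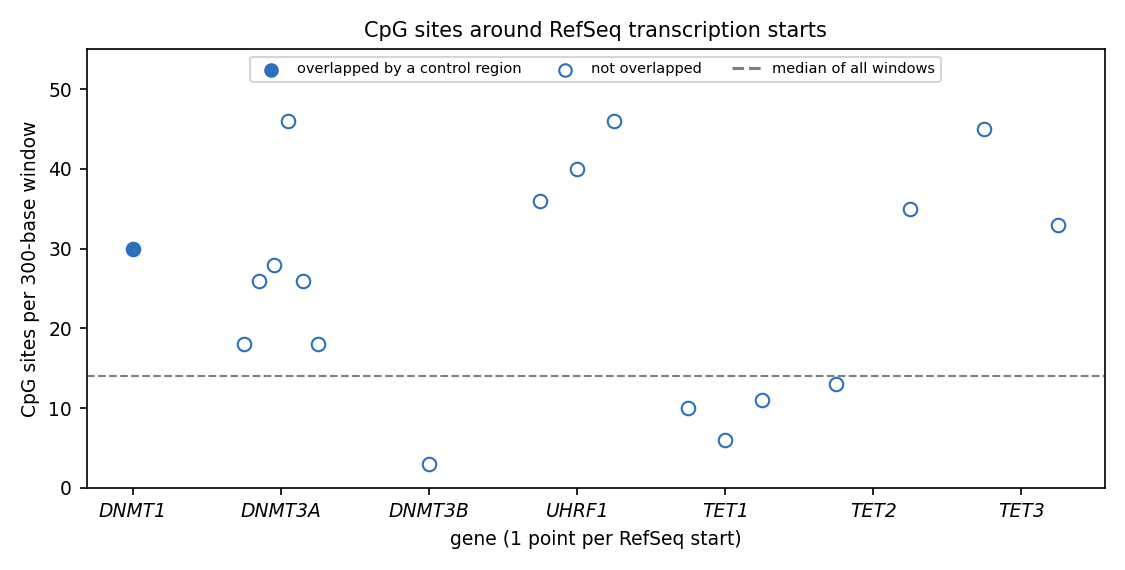
CG sites (CpG) per 300-base window around each RefSeq transcription start of 7 genes, 1 point per start, with the filled point overlapped by a control region. The dashed line is the median of all windows, 14; DNMT1 holds the filled point, at 30.

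OGA regions were listed at 3 of these genes after knockdown and at 7 in control, in lists of very unequal length. The control list was also shortened to the length of the knockdown list by keeping its widest regions. The 8 genes then held 4 knockdown and 3 control regions. Knockdown regions were narrower (median 727 against 1577 bp), so a trim by width does not match the lists. It dropped the control regions at DNMT3B (2144 bp) and DNMT3L (1268 bp) that each held a knockdown region. With a minimum width of 1577 bp in both lists, the counts were 0 in knockdown and 11 in control. Whether list length accounts for the lower number in knockdown was not tested. In the knockdown list 3 of the 8 genes had a region, DNMT3B, DNMT3L and TET1, where 3.99% of 20056 protein-coding genes had one. In the control list 7 of the 8 had one, all but UHRF1, where 21.7% of protein-coding genes did. Of control genes with any region, 15.1% also had a knockdown region, and 3 of these 7 did. The protein-coding genes were not matched to the members on length or expression.

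**Figure D2:**
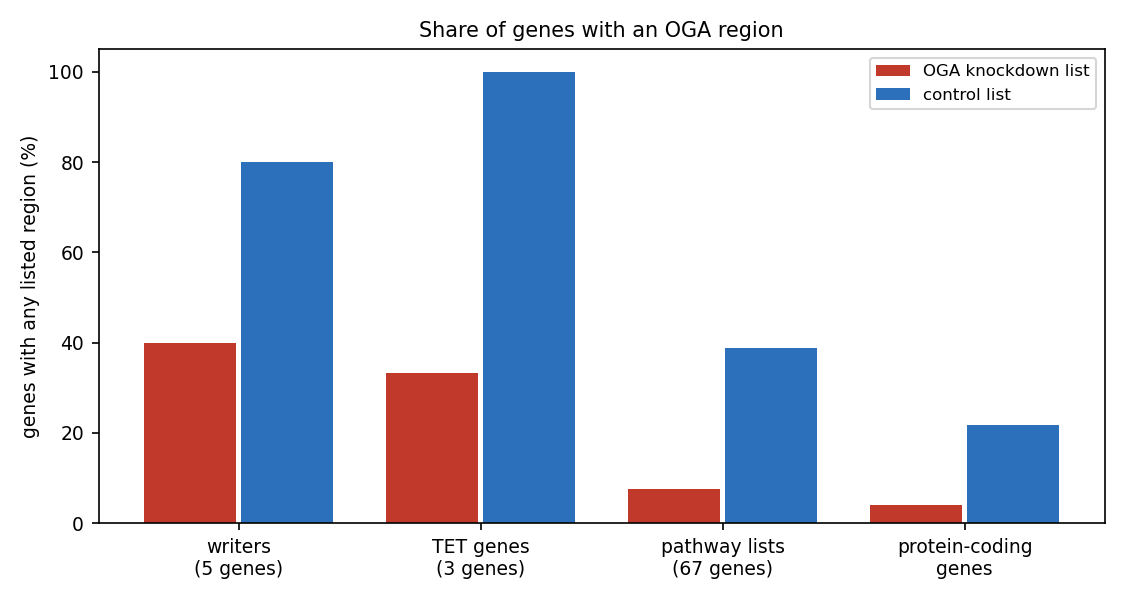
Percentage of genes with any listed OGA region among writers, TET genes, 67 genes of related pathways and all protein-coding genes, with the OGA knockdown list in red and the control list in blue. Writers stand at 40.0% and 80.0%, TET genes at 33.3% and with all 3 genes, and protein-coding genes at 3.99% and 21.7%.

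The de novo methyltransferase genes and their cofactor carried the most regions. DNMT3A, DNMT3B and DNMT3L had 4 control regions each, while the median protein-coding gene with any region had 1 and 3.67% of such genes had 4 or more. DNMT3B had 1 knockdown region and DNMT3L had 2, whereas DNMT3A had 0. DNMT1 had 0 knockdown regions and 1 control region. UHRF1 had 0 in each list.

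At DNMT3B the knockdown region ended short of the start site. It lay on chromosome 20 at 32761115 to 32762182 (GRCh38, 1068 bp), 203 bp upstream of the start of NM_001207055.2. It was nested in a control region at 32760244 to 32762387 (2144 bp), which reached 2 bp past that start. The knockdown region was 49.8% as wide as the control region around it. The other control regions at DNMT3B lay 5777 bp upstream (1590 bp wide), 1583 bp downstream (1821 bp wide) and 2809 bp upstream of the internal start of NM_175850.3 (1930 bp wide). The last of these ended 2558 bp before the DNMT3B window shown above. A control region assigned to the neighbouring gene COMMD7 came within 805 bp of the most upstream DNMT3B region.

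DNMT3L had regions before its start site in both lists. The knockdown regions lay on chromosome 21 at 44263475 to 44264187 (713 bp) and at 44268876 to 44269665 (790 bp), 1578 and 6979 bp upstream of the start. Both were nested in control regions, at 44263078 to 44264345 (1268 bp) and at 44267133 to 44270067 (2935 bp). The knockdown regions spanned 56.2% and 26.9% of the width of those control regions. The wider control region merged 2 peaks of replicate 1 with 1 of replicate 2, and was the only member region to join several peaks of a replicate. Further control regions lay 8791 bp upstream of the start (2164 bp wide) and in exon 7 of 12 of NM_013369.4 (1936 bp wide). None of the 6 DNMT3L regions spanned the start site.

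DNMT3A had control regions alone, and all 4 lay away from the starts of its curated transcripts. A region on chromosome 2 at 25259400 to 25260648 (1249 bp) spanned the start of XM_011532667.3, and a region at 25314939 to 25316146 (1208 bp) lay 469 bp upstream of the start of XM_017003526.1. Both transcripts are predicted models, which RefSeq marks with XM. The other regions were in intron 6 of 22 of NM_022552.5 and were 1565 and 1174 bp wide. The nearest control region came no closer than 6834 bp to any of the 6 RefSeq start windows of DNMT3A.

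The maintenance genes had few regions. The DNMT1 control region lay on chromosome 19 at 10194907 to 10195762 and spanned the start of NM_001130823.3, extending 809 bp upstream and 46 bp into the gene. At 856 bp it was the narrowest member region in control, and 4.47% of control regions were as narrow or narrower. The closest knockdown region lay 254805 bp away. The nearest control regions to the UHRF1 windows were assigned to its neighbours PLIN3 and KDM4B, and the closest lay 37856 bp from the window shown.

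Of the regions assigned to TET genes, 4 of 5 in control and the only 1 in knockdown lay outside promoters. Promoter regions made up 46.9% of all control and 39.1% of all knockdown regions, so most listed regions lay outside promoters too. TET1 had 1 knockdown region and 2 control regions, TET2 had 0 and 2, and TET3 had 0 and 1. The TET1 knockdown region lay on chromosome 10 at 68553177 to 68554741 and was 5596 bp upstream of the start of NM_030625.3. At 1565 bp it was wider than most, since 98.0% of knockdown regions were as narrow or narrower. It was nested in a control region at 68552827 to 68555748 (2922 bp), 4589 bp upstream of the start, and spanned 53.6% of its width. The other TET1 region in control, at 68635381 to 68638411, spanned the start of the predicted transcript XM_017016686.2 deep in the gene. It was the widest member region (3031 bp) and was not overlapped in knockdown.

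TET2 and TET3 had intronic regions in control. Those of TET2 lay on chromosome 4 at 105203056 to 105204284 (1229 bp) and 105213609 to 105215539 (1931 bp), both in intron 2 of 2 of NM_017628.4 and 56174 and 66727 bp into the gene. That of TET3 lay on chromosome 2 at 74025646 to 74027635 (1990 bp), in intron 3 of 12 of XM_011532684.2 and 22536 bp from the nearest start. A further control region, over the start of the antisense gene DGUOK-AS1, ended 2272 bp before the most upstream TET3 window and was assigned to DGUOK-AS1.

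**Figure D3:**
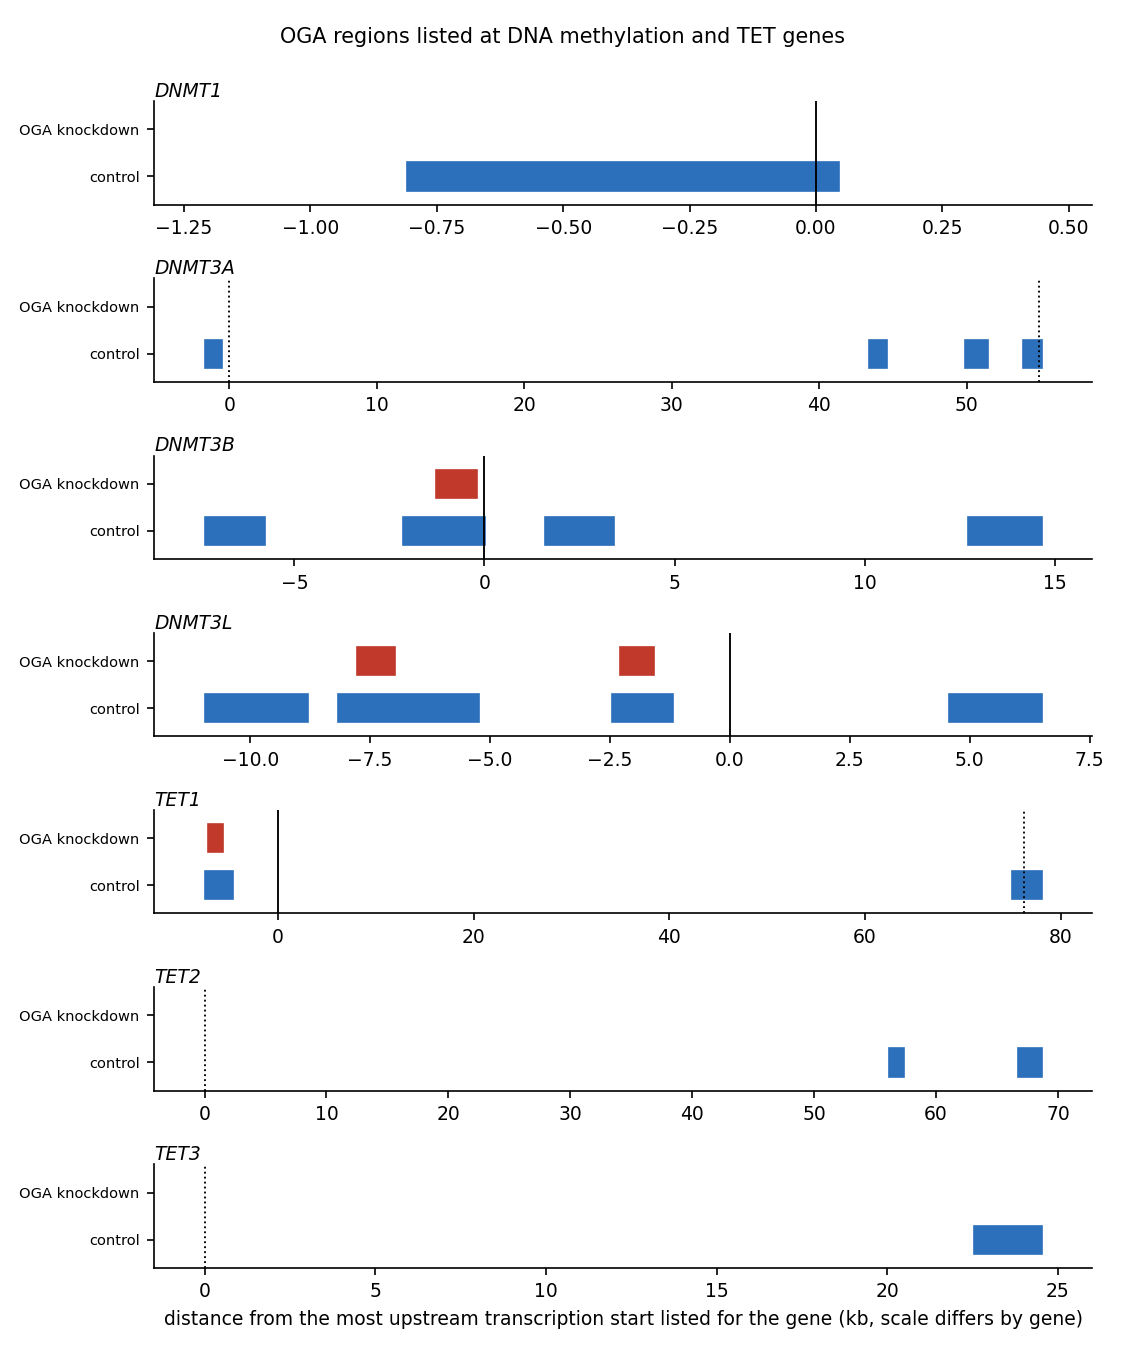
Listed OGA regions at 7 genes, drawn by distance in kb from the most upstream transcription start that the lists give for each gene, with OGA knockdown (red) above control (blue) and transcription running left to right. Solid lines mark starts of curated transcripts and dotted lines those of predicted ones; the 4 knockdown regions, at DNMT3B, DNMT3L and TET1, each lie within a control region.

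Promoter regions, taken as within 3 kb of a listed start, were counted next. In the knockdown list 2 writers and 0 TET genes had one (DNMT3B and DNMT3L), where 2.05% of protein-coding genes did. In the control list 4 of 5 writers and 1 of 3 TET genes had one, where 14.9% of protein-coding genes did. The choice of transcripts decided the calls at DNMT3A and TET1. Counting starts of curated transcripts alone, the knockdown list still had DNMT3B and DNMT3L (background 1.35%), and the control list had DNMT1, DNMT3B and DNMT3L (background 10.1%), with 0 TET genes. In the whole lists 37.8% of knockdown and 37.6% of control promoter regions were called at a predicted transcript.

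Writers and TET genes are set side by side without a test, since they are 5 and 3 genes and regions of 1 gene are not independent. Writers had 0.6 knockdown and 2.6 control regions per gene, and TET genes 0.333 and 1.67. The writers were uneven, since DNMT3A, DNMT3B and DNMT3L had 4 control regions each, while DNMT1 had 1 and UHRF1 had 0. Regions per gene were not computed over all genes. In control, 7 of 13 writer regions and 1 of 5 TET regions were at promoters, beside 46.9% of all control regions, so that the writers were close to the whole list. The median distance to the nearest listed start was 2809 bp for writers (0 to 10324) and 22536 bp for TET genes (0 to 66727) in control. The TET median is the TET3 region alone, measured to a predicted start. These distances were not set beside gene length or the whole list. Control regions of writers had a median width of 1590 bp (856 to 2935) and those of TET genes 1990 bp (1229 to 3031), ranges that overlapped. Among all member regions the median width was 929 bp in knockdown and 1875.5 bp in control, beside 727 and 1577 bp over the whole lists.

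**Figure D4:**
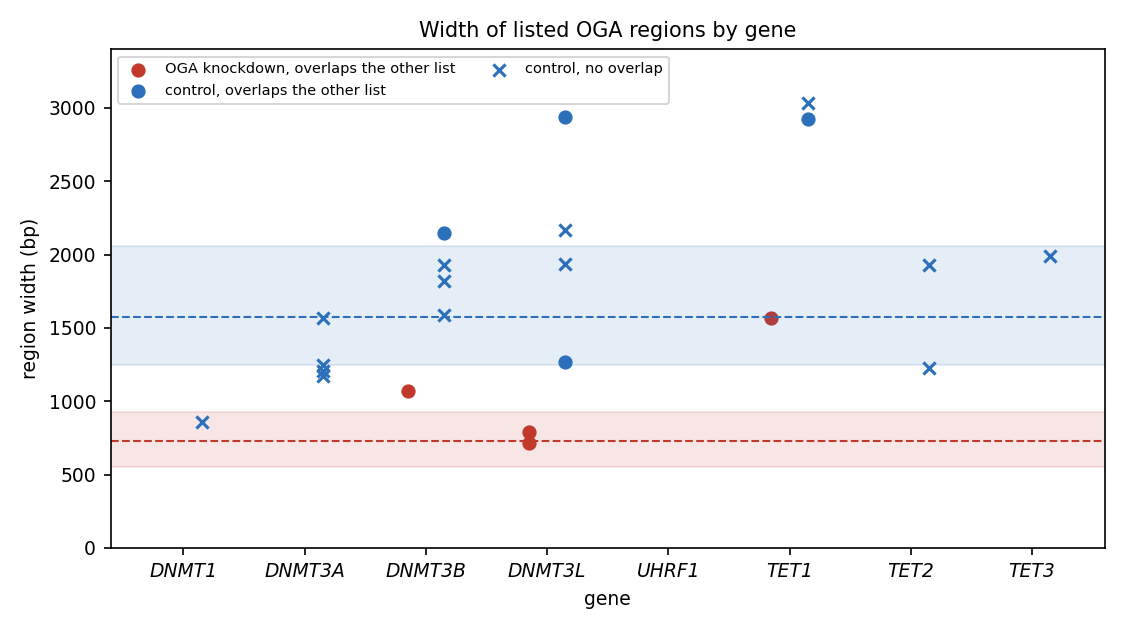
Width in bp of every listed region at the 8 genes, with OGA knockdown (red) left of control (blue); circles overlap the other list and crosses do not. Dashed lines and bands give the median and interquartile range of each whole list, and 3 of 4 knockdown and 11 of 18 control regions lie above their list's median.

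Each of the 4 knockdown regions at these genes overlapped a control region by at least 1 bp, where 69.0% of all knockdown regions did. All 4 were also nested in the control region that they overlapped. Of 18 control regions 4 were overlapped (22.2%, Wilson 95% interval 9.0 to 45.2, counting error only), where 10.0% of control regions were. The share was 3 of 13 for writers (23.1%, 8.18 to 50.3) and 1 of 5 for TET genes (20.0%, 3.62 to 62.4). These intervals treat regions as independent, which regions of 1 gene are not, so they do not compare writers with TET genes. Nesting was common in the whole lists, at 83.8% of 922 overlapping pairs, and the knockdown region of a pair had a median of 40.6% of the control width (interquartile range 28.1 to 57.5). Of the 4 member pairs, 3 fell inside that range and the wider DNMT3L pair, at 26.9%, fell below it. The centres of paired regions lay 119.5 to 670.5 bp apart.

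The numbers that the lists give to replicate peaks showed where peaks had been called without entering a region. Within each library these numbers followed genome order, with 0 of 1328 and 0 of 1330 neighbouring pairs out of order in knockdown and 0 of 9314 and 0 of 9127 in control. A jump in number between neighbouring regions therefore counts peaks that entered no region, provided that every called peak was numbered in this order. The highest numbers were 14203 and 13946 in knockdown replicates 1 and 2 and 24287 and 28210 in control replicates 1 and 2. Of those peaks, at least 12849 and 12590 in knockdown and 14944 and 19054 in control were in no listed region.

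The control gap around UHRF1 held unlisted peaks of replicate 2 alone. Between the control regions at PLIN3 and KDM4B, a gap of 96.76 kb holding all 3 UHRF1 start windows, the numbers of replicate 1 ran on without a jump, while those of replicate 2 skipped 3 peaks. Replicate 1 thus had 0 numbered peaks there, and the 3 peaks of replicate 2 cannot be placed within the gap. Such a gap was not particular to UHRF1. The control gaps before the DNMT1 region and before the upstream TET1 region each held 0 unlisted peaks of replicate 1 and 2 of replicate 2. The share of such gaps over the whole control list was not counted. In knockdown the gap around UHRF1 was 1432 kb, between HDGFL2 and VMAC, and held 1 unlisted peak of replicate 1 and 2 of replicate 2. The start windows of TET3 gave the same picture in control, with 0 unlisted peaks of replicate 1 and 1 of replicate 2 in 43.26 kb. Around the TET1 window shown, 2 and 1 control peaks of replicates 1 and 2 were unlisted in 79.63 kb.

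Between neighbouring control regions of DNMT3L and of DNMT3B, peak numbers had few jumps. These gaps were short, from 0.62 kb at DNMT3L to 9.32 kb at DNMT3B. The share of gaps without a jump was not counted over the whole list, so few jumps cannot be called particular to these genes. Neither replicate had an unlisted peak between any neighbouring pair of the 4 DNMT3L regions, and replicate 1 had none between the 4 DNMT3B regions, where replicate 2 had 1 and 2 in separate gaps. At DNMT3A 3 regions followed each other without a jump in either replicate, while the gap of 43.9 kb to the most upstream region held 1 unlisted peak of replicate 1 and 4 of replicate 2. In knockdown the DNMT3L regions were 4688 bp apart with 0 unlisted peaks between them in either replicate.

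Most control regions missing from the knockdown list lay in gaps where both knockdown replicates had unlisted peaks. Of 7642 control regions without overlap that lay between 2 knockdown regions, 4.97% were in a gap where a knockdown replicate had 0 numbered peaks, and of 13 such member regions 0 were. The gaps were wide, from 717.5 kb at DNMT3B to 3393 kb at TET3, and the peaks in them cannot be placed. These shares therefore do not show whether a knockdown peak lay at any control region. Around DNMT1 3 and 5 peaks of knockdown replicates 1 and 2 were unlisted in 1858 kb, and around DNMT3A 18 and 18 in 1836 kb. The gap downstream of the DNMT3B knockdown region spanned 2 control regions and held 1 and 3 unlisted peaks of knockdown replicates 1 and 2. The remaining DNMT3L control region lay beyond the last listed knockdown region of its chromosome. The TET1 knockdown region stood alone, since the nearest others in its list lay 36168384 bp before it, near EPC1, and 1899681 bp after it, near PALD1.

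Among 67 further genes of the pathway, in 6 lists, 5 had a knockdown region and 26 had a control region (38.8%), beside the shares of 3.99% and 21.7% for protein-coding genes. The lists were chosen with earlier results of these data known, so the shares are descriptive and do not measure an enrichment. Partners of maintenance methylation had 2 of 12 in knockdown and 5 of 12 in control. USP7, a deubiquitinase that acts on DNMT1 and UHRF1, had a knockdown region over a start, on chromosome 16 at 8936158 to 8937182 (1025 bp). It overlapped none of the 4 USP7 control regions, the widest of which measured 3125 bp. The closest of these began nearby, at 8937575, and was also called within 1 kb of a start. Over the whole lists 69.0% of knockdown regions overlapped control, the share to set beside this and each pathway region below. NLRP7, a maternal-effect gene whose loss disturbs imprints, had a knockdown region of 723 bp that overlapped a control region of 1532 bp. DPPA3, which binds UHRF1 and hinders maintenance methylation, had 0 knockdown regions and 3 control regions, the widest 2511 bp. KHDC3L, another maternal-effect gene, had a control region of 1721 bp.

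The list of OGT, OGA and factors tied to them or to TET proteins had 2 of 6 in knockdown and 4 of 6 in control. SIN3A, a corepressor scaffold that binds OGT and TET1, had knockdown regions of 458 and 555 bp, both overlapping a control region of 2769 bp. NANOG, a pluripotency factor that binds TET1 in mouse, had a knockdown region of 971 bp that overlapped none of its control regions, the widest of which measured 2897 bp. OGT had a control region over its start (1147 bp). PRDM14, a repressor of de novo methyltransferase genes in mouse, had a control region 2691 bp before a start (1703 bp).

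Readers of CpG methylation state had 1 of 14 in knockdown and 4 of 14 in control. KDM2B, whose CXXC domain binds unmethylated CpG, had a knockdown region 121 bp before a start (884 bp) that overlapped none of its control regions, which were 1450 and 1510 bp wide. KDM2A (3653 bp) and KMT2A (1760 bp) had control regions alone. The other lists had 0 knockdown genes. Methyl donor and cofactor genes had 6 of 10 in control, among them OGDH (widest 2732 bp), MAT2A (1826 bp) and MAT2B (1654 bp). Imprint and repeat silencing genes had 4 of 10, at ZFP57 (2023 bp), DAXX (1772 bp), ATRX (1260 bp) and TRIM28 (1055 bp). Base excision repair and deamination partners of TET had 3 of 15 (20.0%), near the protein-coding background of 21.7%, at PARP1 (3783 bp), APEX1 (1665 bp) and GADD45B (widest 1307 bp).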

How the data were processed

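OGA CUT&Tag was measured in 4 H9 libraries, 2 per group, grouped by sample title. In the submitters' processing notes stand the build GRCh38.p13 and, without stated roles, the tools ChIPseeker 1.12.1, SEACR 1.3, Bowtie2 2.3.4.3, edgeR and DESeq2. Peak threshold and antibody control are not given in the sources used here. Per the file headers, the deposited lists give position, width, annotation class, distance to the nearest start in bp and the numbered replicate peaks behind each region. A repeated line in control was used once.

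Overlap was at least 1 bp. Gene names were matched to RefSeq (GRCh38.p14) by gene ID or symbol, 1130 of 1178 in knockdown and 6243 of 6510 in control. Start windows came from the same release. Of 2771 curated starts in the lists at genes with a window, 92.5% lay at the same base, so coordinates were compared directly. Intervals are Wilson 95%.

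The named genes were all 8 members and, of each pathway list, genes with a knockdown region and the 4 with the widest control region. Some genes that the rule takes are not reported by name here. Members and lists were chosen with earlier results of these data known. The overlap and numbering steps were tested on simulated data. Computation used matplotlib 3.10.9, scipy 1.17.1, pandas 2.3.3 and numpy 2.4.6 under Python 3.11.15.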

Additional observations from a re-analysis of the deposited data

How the results depend on the processing

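Of 40 alternatives to the counts and shares, 33 left the value within 1.5 times (for shares, within its interval). Several of the 33 could not have moved, such as leaving out a gene without knockdown regions from the knockdown share. The intervals of the shares are wide, as they rest on 4 and 18 regions. The count of 33 is therefore no measure of robustness. Keeping only regions whose width reached the median of the control list, the 8 genes had 0 knockdown and 11 control regions in place of 4 and 18. When the control list was shortened to the length of the knockdown list by keeping its widest regions, 3 remained in control. Counted over the gene body or within 3 kb before its start, the knockdown count was 2, since the TET1 region and a DNMT3L region lie further upstream, and the control count 14. With promoters within 1 kb, 1 member had one in knockdown and 4 in control. With curated transcript starts alone, chosen after seeing the data, 2 members had one in knockdown and 3 in control in place of 5. Writers held 75% of member regions in knockdown and 72.2% in control; without TET1 the knockdown share was 100%, by construction, and without DNMT3L it was 50%. Centres within 500 bp left 3 shared regions. No paired analysis was possible because each listed region joins peaks of both replicates, and for the same reason leaving out a replicate and count tests with edgeR or DESeq2 were not run. Depth is unknown, so an absent region is not an absent signal.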
